A study of Mus musculus with 6 samples.

Results

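Reabsorption of filtered bicarbonate and formation of ammonia by the proximal tubule were followed through 6 genes: the sodium-proton exchanger Slc9a3, the carbonic anhydrases Car4 and Car14, the sodium-bicarbonate cotransporter Slc4a4, the glutamine transporter Slc38a3 and the glutamate dehydrogenase Glud1. They were chosen by gene name, as the non-control probes of the array that carry 1 of these 6 names. This gave 9 probes for 6 genes, of 41174 probes measured and 19598 genes tested. Slc4a4 had 3 probes, Slc9a3 had 2 and the other genes 1 each, and all 9 were well above background on all 6 arrays. Coordinates of probes refer to mm8, the build named in the array files.

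Unilateral ureteral obstruction, in which 1 ureter is tied off, is a mouse model of renal fibrosis. Ligated kidneys were the left kidneys of 3 CD-1 mice (numbers 495, 485 and 512) after complete ligation of the left ureter, and contralateral kidneys were the untied right kidneys of the same 3 mice. No genetic alteration or drug is named for either group; CD-1 is an outbred stock, and the sources used here do not give the age of the mice or the time after ligation. RNA of each kidney went on its own single-colour array. The contralateral kidney shares the circulation of an animal with an obstructed kidney, so it is not a kidney of an unoperated mouse. The labels call the material kidney in one field and primary cells in another, and which was extracted is not settled in the sources used here.

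The proximal tubule takes back most of the bicarbonate that the glomerulus filters. Protons leave the cell across the brush border, membrane-bound carbonic anhydrase turns the resulting carbonic acid into carbon dioxide and water, and the bicarbonate rebuilt inside the cell leaves across the basolateral membrane. The same cells take up glutamine, strip it of its amino groups in the mitochondrion and so make ammonia for acid excretion and new bicarbonate for the blood.

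Signal is given below as scaled signal, the processed intensity of a probe divided by the 75th percentile of its array, and single kidneys are listed in the order mouse 495, mouse 485, mouse 512. The 75th percentile was 1068 to 1432 intensity units on ligated arrays and 671 to 1106 on contralateral arrays, where 72.1% to 74.7% and 65.7% to 69.5% of probes were well above background. All 11 proximal tubule markers examined, among them megalin (Lrp2), were above background on all 6 arrays. The contralateral kidney of mouse 512 stood apart from the other contralateral kidneys. The summed scaled signal of the 11 proximal markers was 349 there, against 1549 (mouse 495) and 1730 (mouse 485) in the others of its group and 164 to 269 in the ligated kidneys. Results are therefore also given without it.

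All 6 genes had a lower mean log2 scaled signal in ligated kidneys, by 1.75-fold for Glud1 up to 8.53-fold for Car14. Folds here and below come from the log2 fold change, so from means of log2 values and not of scaled signal. In the fit with the mouse as a block, 4 of the 6 were called lower at an adjusted p under 0.05 (Slc9a3, Slc4a4, Slc38a3 and Glud1). Car4 and Car14 showed the largest mean differences but missed the threshold. Over all genes tested, 14.7% were called lower and 16.0% higher. At an unadjusted p under 0.05, 5 of the 6 were lower, with Car14 the exception, beside 25.8% of all genes. With arrays centred on spike-in spots, Slc9a3, Car4 and Car14 were called lower and the other 3 were not, beside 665 of 19598 genes called lower. The median log2 fold change of the 6 genes was −1.80, beside −0.01 over all genes. Because these are bulk samples, fewer cells of a type and less RNA per cell cannot be told apart.

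**Figure D1:**
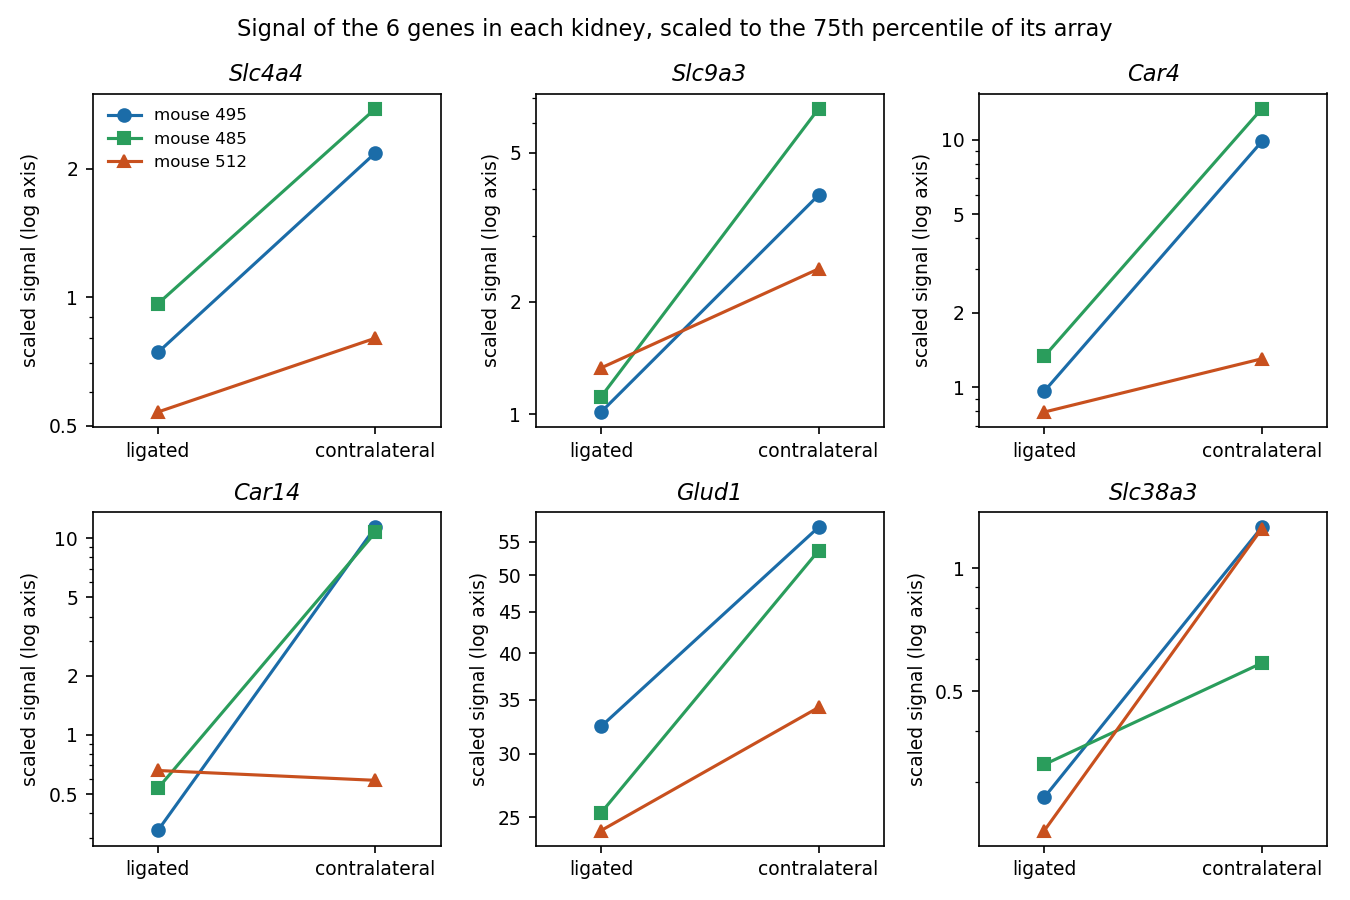
Scaled signal (log axis) of the probe that stands for each of the 6 genes, in the ligated kidney (left) and the contralateral kidney (right) of each mouse, with lines joining kidneys of 1 mouse. Every line climbs to the right except that of Car14 in mouse 512, and the contralateral kidney of mouse 512 is the lowest of its group for each gene but Slc38a3.

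Slc9a3 encodes NHE3, the brush border exchanger that moves sodium into the cell and protons out of it. Its brighter probe (chr13:74635283-74635342) gave 1.01, 1.12 and 1.33 in ligated kidneys, against 3.85, 6.55 and 2.45 in contralateral kidneys. Every ligated kidney was below every contralateral kidney. The log2 fold change was −1.79 ± 0.37 (SE, n = 3 pairs; 95% interval −2.80 to −0.77; limma, adjusted p = 0.0379), a 3.45-fold lower mean. The ligated kidneys lay close together, with a highest to lowest ratio of 1.31, whereas that ratio was 2.68 among contralateral kidneys. The second probe covers 60 bases of messenger RNA drawn from 607 bases of genome (chr13:74629120-74629726) and so reads across a splice junction. It is shown because it missed the threshold while its neighbour passed.
Slc9a3 junction probe: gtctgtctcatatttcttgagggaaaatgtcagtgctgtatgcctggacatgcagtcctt
This dimmer probe gave 0.0240, 0.0183 and 0.0297 in ligated kidneys, against 0.0718, 0.0939 and 0.0375 in contralateral kidneys. Its groups did not overlap either. In a fit over all 29093 probes its log2 fold change was −1.42 ± 0.43 (adjusted p = 0.0707), beside −1.79 ± 0.37 (adjusted p = 0.0370) for the brighter probe in that fit. The array lists the brighter probe under a cDNA clone record and the dimmer one under a RefSeq transcript. The call of Slc9a3 thus rests on the clone probe alone, and whether both probes read the same transcript was not tested.

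Car4 encodes a carbonic anhydrase anchored to the outer face of the tubular cell membrane, on the brush border and the basolateral side. Its single probe lies at chr11:84781003-84781062 and begins at base 698 of the transcript.
Car4 probe: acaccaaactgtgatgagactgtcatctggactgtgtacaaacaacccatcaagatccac
The probe gave 0.967, 1.34 and 0.796 in ligated kidneys, against 9.84, 13.3 and 1.31 in contralateral kidneys. The contralateral kidney of mouse 512 lay just below the ligated kidney of mouse 485, so the groups overlapped. The log2 fold change was −2.46 ± 0.63 (SE, n = 3 pairs; 95% interval −4.19 to −0.73; adjusted p = 0.0524), a 5.50-fold lower mean that was not called. Within mice it was −3.35, −3.32 and −0.71.

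Car14 encodes a carbonic anhydrase that spans the membrane and has its active site outside the cell. Its single probe (chr3:95983341-95983400, minus strand) gave 0.327, 0.535 and 0.659 in ligated kidneys, against 11.4, 10.7 and 0.588 in contralateral kidneys. In mice 495 and 485 the ligated kidney held a small part of the contralateral signal, while in mouse 512 the ligated kidney was slightly the higher of the pair. The within-mouse log2 differences were −5.12, −4.32 and 0.17. The fitted log2 fold change was −3.09 ± 1.16 (SE, n = 3 pairs; 95% interval −6.31 to 0.12; adjusted p = 0.107). Of the 19598 genes, 0.199% had a lower fitted value, yet the interval included 0 and Car14 was not called. Among contralateral kidneys the highest signal was 19.4 times the lowest, against 2.02 times among ligated kidneys.

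Slc4a4 encodes NBCe1, which carries sodium and bicarbonate together out of the proximal cell into the blood. The brightest of its 3 probes (chr5:90314138-90314197) gave 0.742, 0.965 and 0.538 in ligated kidneys, against 2.18, 2.76 and 0.801 in contralateral kidneys. Each ligated kidney was below its own partner, but the contralateral kidney of mouse 512 was below the ligated kidney of mouse 485. The log2 fold change was −1.22 ± 0.26 (SE, n = 3 pairs; 95% interval −1.94 to −0.49; adjusted p = 0.0402), a 2.32-fold lower mean. A second probe begins at base 2234 of the transcript (chr5:90272212-90272271), far upstream of the brightest one, and is shown as another reading of the transcript body.
Slc4a4 upstream probe: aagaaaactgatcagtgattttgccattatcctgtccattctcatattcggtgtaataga
It gave 0.545, 0.972 and 0.447 in ligated kidneys, against 2.26, 2.63 and 0.890 in contralateral kidneys. The third probe (chr5:90311766-90311825) gave 0.615, 0.558 and 0.378 in ligated kidneys, against 1.66, 1.68 and 0.651 in contralateral kidneys. In the fit over probes these had log2 fold changes of −1.49 ± 0.25 (adjusted p = 0.0303) and −1.27 ± 0.22 (adjusted p = 0.0307), beside −1.22 ± 0.26 (adjusted p = 0.0393) for the brightest. All 3 probes of the cotransporter were thus called lower, and with the brighter Slc9a3 probe, Slc38a3 and Glud1 they made 6 of the 9 probes called lower in that fit, beside 14.9% of all its probes.

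Slc38a3 encodes SNAT3, a basolateral glutamine transporter that supplies the proximal cell with the substrate of ammonia formation. Its probe (chr9:107509595-107509654, minus strand) gave 0.275, 0.331 and 0.228 in ligated kidneys, against 1.26, 0.587 and 1.25 in contralateral kidneys. The groups did not overlap, and the low contralateral kidney was here that of mouse 485, not that of mouse 512. The log2 fold change was −1.82 ± 0.38 (SE, n = 3 pairs; 95% interval −2.87 to −0.77; adjusted p = 0.0383), a 3.54-fold lower mean. Within mice it was −2.19, −0.82 and −2.45, so this gene had its largest within-mouse difference in mouse 512.

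Glud1 encodes the mitochondrial glutamate dehydrogenase, which releases ammonia from glutamate. Its probe (chr14:33173825-33173884) gave 32.4, 25.3 and 24.1 in ligated kidneys, against 57.3, 53.6 and 34.2 in contralateral kidneys. No ligated kidney reached the lowest contralateral one in scaled signal. The log2 fold change of −0.80 ± 0.18 (SE, n = 3 pairs; 95% interval −1.30 to −0.31; adjusted p = 0.0417) was the smallest of the 6 genes, and 16.2% of all genes had a lower one. Under quantile normalization the value was −0.18 (adjusted p = 0.307), and with spike-in centring it was −0.50 (adjusted p = 0.452), neither of them a call. Before scaling, the ligated kidney was slightly the brighter in mouse 495 (44158 against 42447) and mouse 485 (36279 against 35959). In mouse 512 it was the dimmer (25725 against 37857).

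Across the 6 genes, 5 were lower in the ligated kidney of all 3 mice, with Car14 the exception, beside 37.9% of all genes tested. Groups did not overlap for 3 of the 6 (Slc9a3, Slc38a3 and Glud1), beside 28.8% of all genes tested whose ligated kidneys all lay below all contralateral kidneys. The size of the difference in scaled signal moved with the mouse. For mice 495, 485 and 512 the 6 genes had median differences of −2.06, −2.04 and −0.64, beside medians over all genes of −0.02, −0.03 and −0.03. The 75th percentiles, ligated against contralateral, were 1362 against 740, 1432 against 671 and 1068 against 1106. Before scaling, the brightest Slc4a4 probe gave 1010 against 1612, 1381 against 1854 and 575 against 886. Car14 gave 445 against 8428, 766 against 7180 and 704 against 650. The part of scaling in this pattern was not tested.

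**Figure D2:**
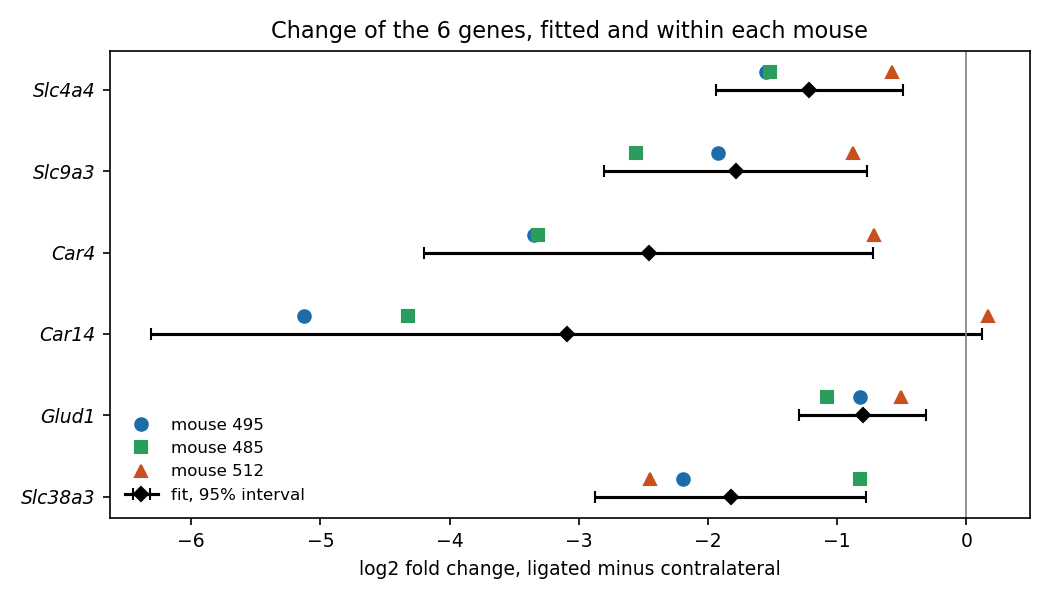
Log2 fold change (ligated minus contralateral, horizontal axis) of each of the 6 genes within each mouse (coloured points) and in the fit (black diamonds with 95% intervals). Mouse 512 lies nearest to 0 for 5 genes and farthest from 0 for Slc38a3, and of the 6 intervals only that of Car14 includes 0.

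Both kidneys of mouse 512 were also compared with the same baseline. Set against the mean of the contralateral kidneys of mice 495 and 485 on the log2 scale, Car14 was −4.07 in the ligated kidney of mouse 512, −4.72 in the mean of the other ligated kidneys and −4.23 in the contralateral kidney of mouse 512. For Car4 the same differences were −3.85, −3.33 and −3.13, and for Slc4a4 they were −2.19, −1.54 and −1.61. For these 3 genes the contralateral kidney of mouse 512 was thus near the level of ligated kidneys. Slc9a3 and Glud1 were intermediate there, at −1.04 and −0.70, while their ligated kidneys of mouse 512 stood at −1.92 and −1.20. Slc38a3 was 0.54 in that contralateral kidney, on the other side of 0, against −1.91 in the ligated kidney of the same mouse. Over all genes, that kidney was below both other contralateral kidneys for 44.2% and above both for 39.4%. The share of genes with a lower value than the member in it was 0.122% for Car14, 0.520% for Car4, 3.73% for Slc4a4, 9.47% for Slc9a3, 17.4% for Glud1 and 77.7% for Slc38a3.

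**Figure D3:**
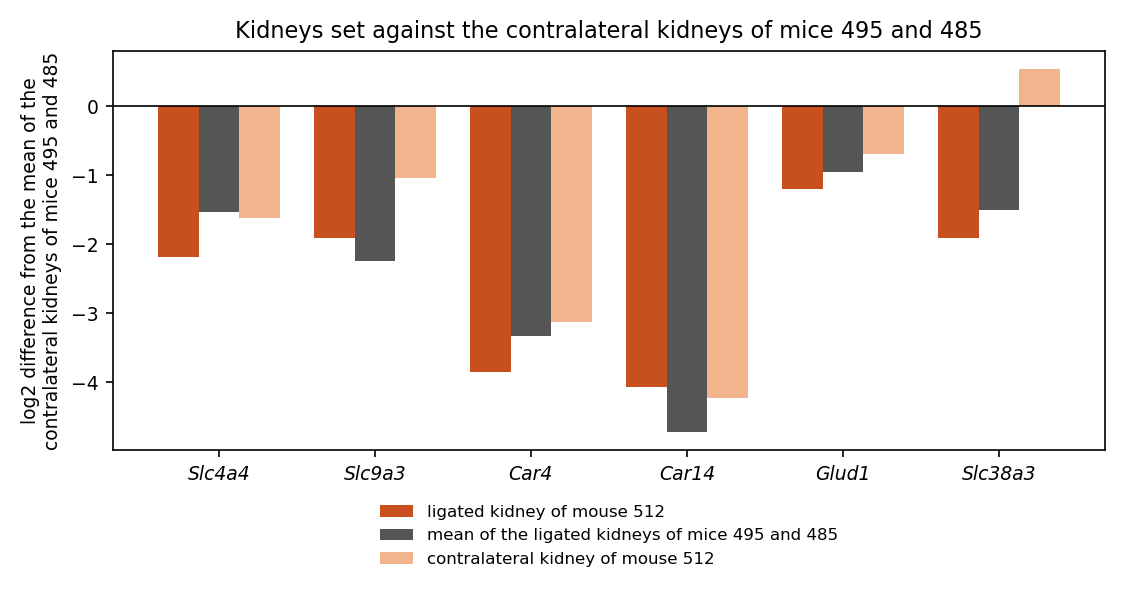
Log2 difference of scaled signal from the mean of the contralateral kidneys of mice 495 and 485, for the ligated kidney of mouse 512, the mean of the other ligated kidneys and the contralateral kidney of mouse 512. Bars of the contralateral kidney of mouse 512 reach about as low as those of ligated kidneys for Slc4a4, Car4 and Car14, and stand above 0 for Slc38a3.

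Mouse 512 was also hybridised on a slide of its own, and both kidneys of mice 495 and 485 shared the other slide, so slide and mouse cannot be told apart for this animal. Within the shared slide, which is the fit without mouse 512, all 6 genes were called lower, beside 28.2% of genes called lower in that fit. There the log2 fold changes were −2.24 for Slc9a3, −3.33 for Car4, −4.72 for Car14, −1.54 for Slc4a4, −1.51 for Slc38a3 and −0.95 for Glud1, with adjusted p between 0.00347 and 0.0410 over n = 2 pairs. On the other slide the single pair allows no test; its log2 differences were −0.88 for Slc9a3, −0.71 for Car4, 0.17 for Car14, −0.57 for Slc4a4, −2.45 for Slc38a3 and −0.51 for Glud1. An unpaired limma fit left out the contralateral kidney of mouse 512 alone and was added after seeing the data. It called 6 of 6 lower, beside 30.5% of its genes, with Car14 at −4.50 ± 0.32 and Car4 at −3.50 ± 0.27. That kidney was the lowest of its group for each gene but Slc38a3, so leaving it out had to enlarge those differences. The same holds for leaving out mouse 512, whose differences lay nearest to 0 for these genes. Neither fit is separate support. With mouse 495 or mouse 485 left out instead, limma called 0 of the 6, and 0 genes on the whole array, while 4985 and 5017 genes had an unadjusted p under 0.05. At that unadjusted level 2 of the 6 genes were lower in either case, beside 1894 genes lower at it without mouse 495 and 2070 without mouse 485.

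Markers of cell types moved with the same contrast. Of 11 proximal tubule markers, 6 were called lower, with a median log2 fold change of −2.25 and, within mice 495, 485 and 512, medians of −2.99, −2.46 and −0.98. In the collecting duct list 4 of 6 were called lower, and the summed scaled signal was 4.03 to 7.16 in ligated kidneys, against 15.4 to 44.5 in contralateral kidneys. In the loop and distal tubule list 1 of 5 was called lower, with sums of 121 to 165 in ligated kidneys and 109 to 354 in contralateral kidneys. Leukocyte markers summed to 175 to 196 in ligated kidneys, against 14.9 to 43.6 in contralateral kidneys, and 6 of 8 were called higher. Fibroblast and myofibroblast markers summed to 59.4 to 131 in ligated kidneys, against 9.27 to 37.9 in contralateral kidneys, and 5 of 6 were called higher. In both of these lists the contralateral kidney of mouse 512 was the highest of its group. Each sum is weighted to its brightest genes. Among leukocyte markers Lyz2 had a mean log2 scaled signal of 7.36 in ligated kidneys, with Csf1r next at 2.73. The lymphocyte markers Cd3e and Cd79a were not called. Among loop and distal tubule markers Umod stood at 6.93 in ligated kidneys, with Kcnj1 next at 3.87. Endothelial sums were 17.1 to 20.03 in ligated and 9.80 to 12.7 in contralateral kidneys (4 of 6 called higher), and podocyte sums were 4.23 to 5.12 in ligated and 1.71 to 2.79 in contralateral kidneys (2 of 5 called higher). Of these markers, Postn and Cd79a were at background on some contralateral arrays, and all others were above it on all arrays. The part of cell makeup in the values of the 6 genes was not tested.

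The 32 other genes of acid-base handling that were listed in 5 groups had 31 measured members, and Pck1 was not analysed here. Of the 31, 15 were called lower and 1 higher, beside 14.7% lower and 16.0% higher over all genes. Their median log2 fold change was −0.92, beside −0.01 over all genes. Per mouse the median was −1.11, −1.19 and −0.66. With spike-in centring 7 were called lower and 1 higher, beside 665 lower and 2329 higher of 19598 genes.

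Ammonia crosses tubular membranes through channels of the Rhesus family and through aquaporin 8, and all 3 listed were called lower. Rhbg, the basolateral ammonia channel of the distal nephron, gave 0.926, 0.589 and 0.571 in ligated kidneys, against 5.38, 4.69 and 1.65 in contralateral kidneys. That was a log2 fold change of −2.35 ± 0.33 (adjusted p = 0.0269). Rhcg, which also works on the apical side, was at −1.47 ± 0.15 (adjusted p = 0.0221), with 5.04, 3.39 and 1.32 in ligated kidneys, against 13.5, 10.4 and 3.40 in contralateral kidneys. Aqp8, a channel for water and ammonia, was at −1.80 ± 0.15 (adjusted p = 0.0221). Its probe was dim, with 0.0236, 0.0418 and 0.0563 in ligated kidneys, against 0.0807, 0.131 and 0.222 in contralateral kidneys. With another background correction (normexp) Aqp8 was at −1.28, still a call (limma, adjusted p = 0.0151). The Rhcg call did not hold without the mouse block (adjusted p = 0.142), with the mouse as a random effect (0.0586) or with spike-in centring (0.0943), nor did that of Aqp8 with spike-in centring (0.0547). In the Rhcg values, the ligated kidney of mouse 495 was above the contralateral kidney of mouse 512, whereas Rhbg did not overlap.

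Of 9 measured genes of ammonia formation and of glutamine or glutamate handling, 4 were called lower and 1 higher. Ggt1, the brush border gamma-glutamyltransferase, gave 4.95, 8.82 and 5.28 in ligated kidneys, against 53.3, 65.2 and 16.5 in contralateral kidneys (log2 fold change −2.65 ± 0.40, adjusted p = 0.0279, 6.29-fold lower). Slc7a7, the light chain of the basolateral y+L amino acid transporter, was at −1.86 ± 0.19, and Slc1a1, the apical glutamate transporter, at −1.78 ± 0.21. Ogdh, which takes the carbon of glutamate on through the tricarboxylic acid cycle, was at −1.42 ± 0.30 (adjusted p = 0.0392). The gene called higher was Slc38a1, a glutamine transporter of the same family as Slc38a3. Slc38a1 gave 1.23, 1.13 and 1.78 in ligated kidneys, against 0.124, 0.103 and 0.633 in contralateral kidneys (log2 fold change 2.75 ± 0.46, adjusted p = 0.0310, 6.72-fold higher). Its 6 probes ranged from 0.96 to 3.27. So within 1 transporter family Slc38a3 fell and Slc38a1 rose in the same 3 pairs, without overlap of groups for either.

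Of 5 other carbonic anhydrases, 2 were called lower. Car12, a membrane-bound form, was at −1.81 ± 0.33 (adjusted p = 0.0330), and its second probe at −2.17 ± 0.31. Car5b, a mitochondrial form, was at −1.004 ± 0.18 (adjusted p = 0.0323), but its dim second probe was called in the opposite direction in the fit over probes, at 0.77 ± 0.18 (adjusted p = 0.0450). Averaging the probes of Car5b gave −0.12 (adjusted p = 0.612). The cytosolic Car2 was at −0.43 (adjusted p = 0.179), and Car13 at 1.03 (adjusted p = 0.332).

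Of 6 other acid and base transporters 1 was called lower. This was Slc26a1, a basolateral anion exchanger for sulfate and oxalate, which gave 6.78, 5.68 and 4.01 in ligated kidneys, against 24.7, 24.8 and 14.3 in contralateral kidneys (−1.94 ± 0.15, adjusted p = 0.0221). The anion exchanger Slc4a2 had a log2 fold change of 0.13 ± 0.16 (adjusted p = 0.539).

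Of 8 scaffolds and regulators of the exchanger and cotransporter, 5 were called lower. Pdzk1 and Slc9a3r1 (NHERF1), PDZ scaffolds of the brush border, were at −1.68 ± 0.22 (adjusted p = 0.0251) and −1.31 ± 0.24 (adjusted p = 0.0336). Slc9a3r1 gave 3.03, 4.19 and 3.85 in ligated kidneys, against 8.79, 13.2 and 6.40 in contralateral kidneys, without overlap. Ahcyl1 (IRBIT), which binds and activates the cotransporter, was at −1.13 ± 0.21, Chp1, a calcium-binding partner of sodium-proton exchangers, at −0.92 ± 0.20, and the kinase Ptk2b at −0.69 ± 0.15. The dimmest Ahcyl1 probe was at 0.20 ± 0.17 (adjusted p = 0.368), and with probes averaged Ahcyl1 was at −0.64 (adjusted p = 0.0539) and Ptk2b at −0.68 (adjusted p = 0.0541), no longer calls. Quantile normalization also ended the calls of Chp1 (−0.43, adjusted p = 0.0819) and Ptk2b (−0.53, adjusted p = 0.0505). The other PDZ scaffold listed, Slc9a3r2, was at 0.42 ± 0.17 (adjusted p = 0.125), and the membrane linker Ezr at −0.07 ± 0.17 (adjusted p = 0.762).

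**Figure D4:**
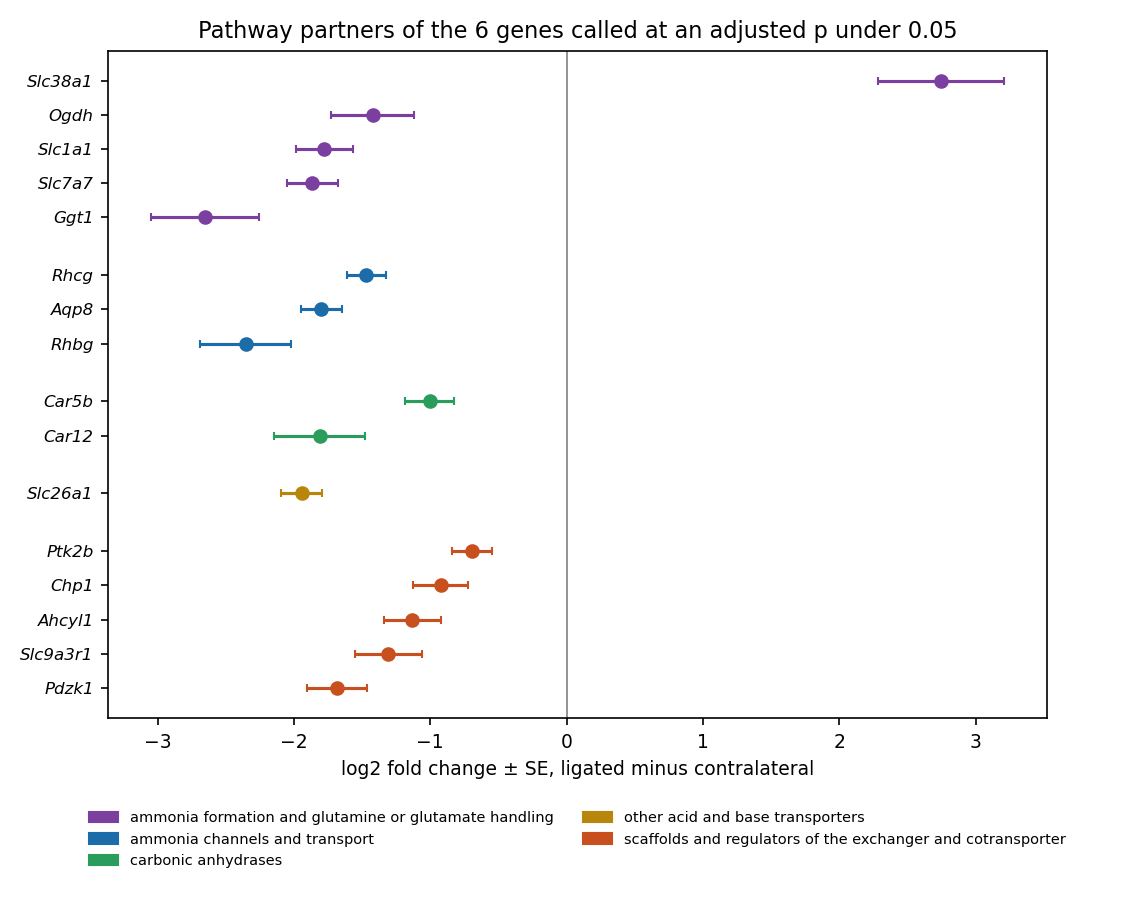
Fitted log2 fold change ± SE (ligated minus contralateral, horizontal axis) of the acid-base partner genes called at an adjusted p under 0.05, coloured by their 5 groups. The 15 genes called lower lie left of 0, and Slc38a1 is the single gene on the right.

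Among the 32 measured relatives of the members in the Slc4, Slc9, Slc38 and carbonic anhydrase families, 4 were called lower and 4 higher, with a median of 0.03. Over all genes 14.7% were called lower and 16.0% higher, so neither count of relatives was above the share over all genes. Slc9a9, an endosomal exchanger, was above background on all 3 ligated arrays and on 0 contralateral arrays, with a bound of 3.77-fold higher in ligated kidneys. It entered the test through the ligated group alone, so its call had to come out higher and supports nothing, and with another background correction (normexp) its log2 fold change was 0.31 (adjusted p = 0.227). A bound of this kind sets the mean of the brighter group against, on each array of the dimmer one, the higher of the probe's own signal and the lowest signal well above background. It belongs to the main background correction and is not a minimum under normexp. Slc9a4 was likewise above background, and entered, through ligated kidneys alone, with a bound of 1.03-fold higher, and its direction turned with normexp, to a log2 fold change of −0.37. In the Slc4 family the call was Slc4a9, at −0.85 ± 0.17 (adjusted p = 0.0367).

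Likeness of pattern was measured as the root mean square difference between log2 profiles over the 6 arrays, after each gene's own mean was subtracted. It is a description over samples that share mice and arrays. Among the 6 genes the nearest pairs were Glud1 with Slc4a4 (0.46), Slc4a4 with Slc9a3 (0.49), Glud1 with Slc9a3 (0.61) and Car14 with Car4 (0.64), and the farthest was Car14 with Slc38a3 (1.78). Over all genes the nearest to Slc4a4 were Galnt3 (0.09) and Pank3 (0.10), and to Slc9a3 they were St8sia1 (0.15) and Dera (0.16). Car4 was nearest to Pecr (0.11) and Gk2 (0.13), and Car14 to 9030619P08Rik (0.21) and S100g (0.26). Glud1 was nearest to Sdhaf4 and Ppargc1a, both at 0.03, and Slc38a3 to Aldh1a7 (0.21) and Cyp2c29 (0.22). The gene nearest to Car4, Pecr, had a log2 fold change of −2.33 ± 0.63 and missed the threshold as Car4 did (adjusted p = 0.0576).

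The 250 bases before the start of transcription were read from RefSeq (GRCm38.p6) for 5 of the 6 genes, and none was printed for Slc38a3. The motif searched was CG, which reads the same on both strands, and its count was set against 32851 promoter windows of that length, whose median count was 6. The windows are shown because the genes differ in it. Car14 and Car4, with the lowest fitted log2 fold changes, are followed by Glud1, with the one nearest to 0, and by the more downstream of the Slc4a4 starts, since the kidney form of the cotransporter is known to come from an internal promoter. Capitals mark CG, each window reads 5′ to 3′ on the strand of the gene, and the positions are chr3:95904686-95904935 (minus strand), chr11:84957504-84957753, chr14:34310477-34310726 and chr5:89027716-89027965.
Car14 window: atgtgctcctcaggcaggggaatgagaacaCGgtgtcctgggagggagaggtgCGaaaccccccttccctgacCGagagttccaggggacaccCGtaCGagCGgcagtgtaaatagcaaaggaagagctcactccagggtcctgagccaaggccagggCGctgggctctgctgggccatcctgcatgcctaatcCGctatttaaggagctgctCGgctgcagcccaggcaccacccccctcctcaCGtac
Car4 window: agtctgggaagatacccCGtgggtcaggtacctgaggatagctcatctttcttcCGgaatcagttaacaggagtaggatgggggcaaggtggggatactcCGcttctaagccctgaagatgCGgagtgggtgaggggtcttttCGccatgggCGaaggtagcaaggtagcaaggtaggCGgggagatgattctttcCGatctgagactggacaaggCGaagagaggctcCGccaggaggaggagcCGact
Glud1 window: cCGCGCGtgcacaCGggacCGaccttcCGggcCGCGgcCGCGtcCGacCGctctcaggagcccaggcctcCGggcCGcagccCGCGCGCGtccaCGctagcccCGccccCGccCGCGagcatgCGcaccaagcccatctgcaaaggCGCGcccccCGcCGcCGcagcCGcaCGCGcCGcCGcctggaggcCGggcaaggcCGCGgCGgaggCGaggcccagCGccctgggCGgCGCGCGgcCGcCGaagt
Slc4a4 downstream window: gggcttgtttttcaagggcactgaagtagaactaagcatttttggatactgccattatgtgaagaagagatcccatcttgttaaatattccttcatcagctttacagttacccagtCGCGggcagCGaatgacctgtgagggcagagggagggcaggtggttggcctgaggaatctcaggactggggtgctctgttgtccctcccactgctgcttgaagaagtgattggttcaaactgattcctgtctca
The Car14 window held 10 CG and the Car4 window 11, more than 62.2% and 64.4% of all windows. The Glud1 window held 46, more than 99.7% of windows. The downstream Slc4a4 window held 3, more than 29.0%, while the upstream Slc4a4 window (chr5:88887010-88887259) held 44. The Slc9a3 window (chr13:74121163-74121412) held 19. With 6 windows this is a description of the sequences, and no relation to the change in signal was tested.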

How the data were processed

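RNA of both kidneys of 3 CD-1 mice was labelled with Cy3 and hybridised to 6 single-colour Agilent arrays (design 014868), per the labels. The authors deposited a processed signal per spot, which is a linear intensity already corrected for background by Agilent Feature Extraction, per the file headers. The headers name version 10.5.1.1 and the submitters' processing notes 9.1; the difference was not resolved. The deposited flags are scores of 0 or 1 per the file headers, and the deposited value table is a ratio of each processed signal to its array's median. It was used as an alternative. No column of another series was present (0).

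Each array held 43379 spots after removal of 1639 control spots; outlier spots were also dropped, and 0 spots were saturated. Log2 of the processed signal minus the array's 75th percentile entered a two-sided limma test (version 3.58.1, R 4.3.3; lmFit, then eBayes) with mouse as a fixed block, adjusted by Benjamini-Hochberg over 19598 genes. Residual degrees of freedom were 2 and prior ones 2.06. Calls were made below an adjusted p of 0.05. Probes with at least 0.5 of their spots well above background on all 3 arrays of a group were kept, and the brightest stood for its gene. Symbols came through RefSeq accessions where matched (24375 probes). The fit was tested on simulated data. Kidneys of 1 mouse carry the same number in the labels, and their deviations from the group means correlated (r = 0.194, 0.481 and 0.271), above every pair of different mice (highest r = 0.0183). The number of arrays limits the precision.

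The members and lists were chosen with earlier results of these data known. Named genes were the 6 members, every called partner gene, the top 2 called genes of each family list (by size of change) and the 2 genes nearest in pattern to each member; others were named after their values were seen. Some results are not reported here. Alternatives varied the block, scaling, background correction, filter, probe summary, variance trend and kidneys used.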

Additional observations from a re-analysis of the deposited data

How the results depend on the processing

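All 6 genes were lower in ligated kidneys under the 13 alternative settings and the 4 fits that left out kidneys, while calls moved more. A change of block, filter, variance trend or gene naming, and the deposited value table, could not change the log2 fold change of a member. Those settings could move only the calls, and their shared direction adds no support. With no replicate block, 2 of 6 were called lower, beside 2789 of 19598 genes, and Slc4a4 (−1.22, adjusted p = 0.108) and Glud1 (−0.80, 0.0585) were not. With no filter on dim probes 0 of 6 were called by limma, 6 of 6 at an unadjusted p under 0.05 (as were 21.9% of all genes, lower): Glud1 was at −0.80 (0.0745), Slc38a3 at −1.82 (0.0561), Slc4a4 at −1.22 (0.0624) and Slc9a3 at −1.79 (0.0558), with more genes tested (28468). Centring on spike-in spots took Glud1 to −0.50 (0.452), Slc38a3 to −1.52 (0.1002) and Slc4a4 to −0.91 (0.151) and made calls of Car14 (−2.79, 0.0371) and Car4 (−2.15, 0.0182). Quantile normalization took Glud1 to −0.18 (0.307), and the mean of probes took Slc9a3 to −1.61 (0.0511); the cause was not tested. Car4 was also called with slide as block or a random mouse effect (−2.46; 0.0284 and 0.0387), median centring (−2.77), normexp (−2.33), probes above background on all 6 arrays (−2.46) and an intensity trend (−2.46). Leaving out 1 mouse at a time gave −4.72 to −2.08 for Car14, −3.33 to −2.02 for Car4, −0.95 to −0.66 for Glud1, −2.32 to −1.51 for Slc38a3, −1.54 to −1.05 for Slc4a4 and −2.24 to −1.40 for Slc9a3; 0 to 6 of the 6 were then called, 0 to 21 of the partners and 0 to 11119 of all genes. The unpaired fit without the contralateral kidney of mouse 512, added after seeing the data, gave −4.50 for Car14, −3.50 for Car4, −1.04 for Glud1 and −1.75 for Slc4a4, with 11183 genes called. That kidney was the lowest of its group for these genes, so their differences had to grow.

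Over all genes 3135 were called higher and 2884 lower. That split was 2329 and 665 with spike-in centring (2994 called; 8 partners), 2561 and 5938 with median centring, 1992 and 2787 with normexp, and 1760 and 902 with no filter (2662 called; 9 partners). The median of all genes, −0.01, was 0.29, −0.32, −0.18 and −0.23 in those settings. Of 493 values of the other named genes under alternatives, 102 lost their call, 22 gained one and 1 reversed: Slc9a4, to −0.37 with normexp (adjusted p = 0.258). Signals of dim probes, such as the second probes of Slc9a3 and Car5b, limit what they can show.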

Other observations

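The values below were chosen after they were seen. Slc9a7, the sodium-proton exchanger of the trans-Golgi network, was higher in ligated kidneys, with a log2 fold change of 0.81 ± 0.14 (limma, adjusted p = 0.0322), and differed by 0.84, 0.91 and 0.68 in mice 495, 485 and 512. Car13, a cytosolic carbonic anhydrase, had within-mouse log2 differences of 1.95, 2.27 and −1.13, a change of sign in mouse 512, and was not called (adjusted p = 0.332).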
